A study of Mus musculus with 9 samples.

Results

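Acyl-CoA thioesterases are enzymes that split fatty acyl-CoA into a free fatty acid and coenzyme A. The 9 genes described here, Acot1, Acot2, Acot3, Acot4, Acot7, Acot8, Acot9, Acot12 and Acot13, were chosen by name from the 18193 genes that the array reads with a probe set of their own. A gene with several such probe sets was represented by the one with the highest mean signal over all arrays. Affymetrix arrays measured liver RNA of single female Crlj:CD1(ICR) mice, an outbred stock, each mouse on its own array. The mice were bought at 9 weeks of age and kept for 1 week before feeding began. The first group of 3 mice ate a diet with 5000 ppm permethrin, the second group of 3 a diet with 5000 ppm clofibrate, and the third group of 3 the control diet, each for 2 weeks. Clofibrate belongs to the fibrates, lipid-lowering drugs that activate the nuclear receptor PPAR alpha, and permethrin to the pyrethroid insecticides.

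Thioesterases set the balance between activated and free fatty acids in each compartment of the liver cell. The family holds enzymes of 2 unrelated folds. Acot1 to Acot6 share an alpha/beta-hydrolase fold and lie next to each other in the mouse genome, while Acot7 to Acot13 share the hotdog fold. Acot1 works in the cytosol, Acot2 in mitochondria and Acot3 and Acot4 in peroxisomes. In rodent liver several of these genes are long-known targets of PPAR alpha.

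The values are array signals in units of intensity, as the authors deposited them, and the trimmed mean of each array, without the lowest and highest 2%, was 100.001. A signal compares 1 probe set across arrays and gives no order between genes. The median signal per array was 14.3 to 15.5 with permethrin, 13.4 to 17.9 with clofibrate and 15.2 to 17.4 in controls. Changes are differences of log2 signals from 1 limma model over all 9 arrays, with the standard error after ± and a threshold of 0.05 on the Benjamini-Hochberg adjusted p. After a mean signal, ± is the standard deviation of 3 arrays. Testing required that 3 or more arrays read above 15.6, the overall median signal, and all 9 genes did so on all 9 arrays. Of 12466 tested genes, 160 were called higher and 106 lower with permethrin than in controls, and 402 higher and 474 lower with clofibrate. Arrays were also scaled to 18 hybridization control probe sets, which read transcripts added at the hybridization step and not the amount of liver RNA. With this scaling to the added transcripts, these splits became 143 to 22 and 1035 to 87. On the log2 scale that choice shifted the median gene by 0.15 with permethrin and 0.34 with clofibrate, each set against control. It shifted permethrin relative to clofibrate by -0.19. Changes of the thioesterase genes relative to the median gene are the same under it by construction.

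Several thioesterase genes were higher under each diet. With permethrin, 3 of the 9 genes rose, Acot1, Acot2 and Acot3, where 1.28% of all tested genes were called higher. With clofibrate, 7 of the 9 rose, where 3.22% of all tested genes were called higher, and Acot9 and Acot13 were the ones that did not pass. None fell under either diet, where 0.85% and 3.8% of all tested genes were called lower. The median log2 change of the 9 genes was 0.59 with permethrin and 1.50 with clofibrate, while that of all tested genes was -0.04 in both comparisons. In 7 of the 9 genes every permethrin array exceeded every control array, where 9.53% of all tested genes did so, and in 7 of the 9 every clofibrate array did, where 11.6% of all tested genes did so. Acot9 was among the first 7 and Acot7 among the second. The 2 comparisons share their control mice.

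**Figure D1:**
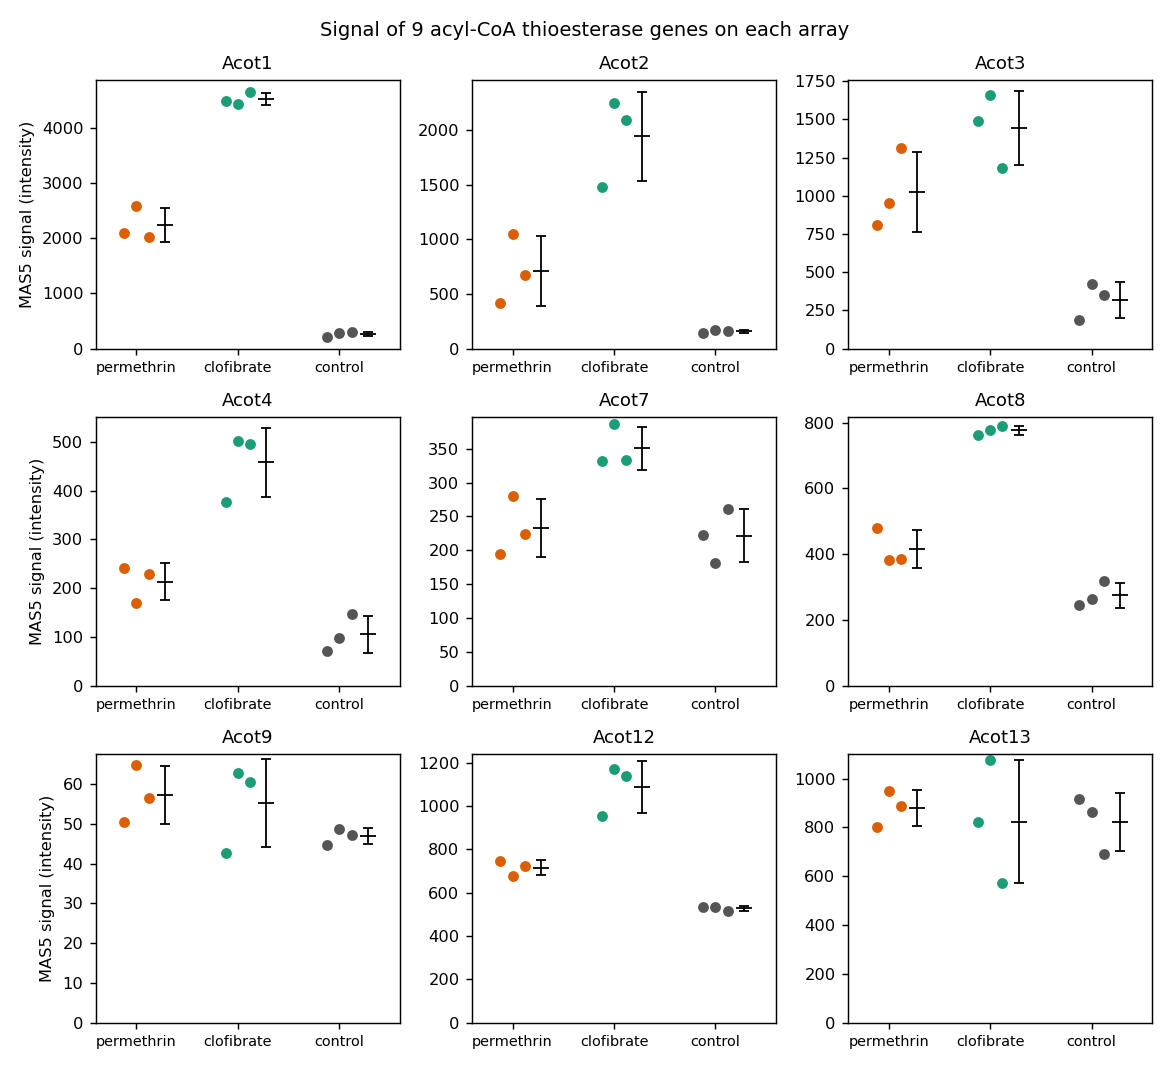
MAS5 signal (intensity, linear axis from 0) of the 9 genes on each array, 3 points per group, with a bar at the mean ± SD (n = 3). In Acot1, Acot2, Acot4, Acot8 and Acot12 the clofibrate points lie above the permethrin points and these above the control points.

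Acot1, the cytosolic enzyme that splits long-chain acyl-CoA, had the largest change of the family under both diets. Its signals were 2094, 2588 and 2025 with permethrin, 4475, 4431 and 4646 with clofibrate, and 212, 279 and 297 in controls. The 3 groups did not overlap, and clofibrate arrays varied least, with a coefficient of variation of 2.52% against 13.7% with permethrin and 17.0% in controls. The log2 change was 3.08 ± 0.14 with permethrin (limma adjusted p = 2.56e-06) and 4.10 ± 0.14 with clofibrate (limma adjusted p = 1.26e-07). Ordered by log2 change among the 12466 tested genes, Acot1 was number 6 from the top with permethrin and number 7 with clofibrate.

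Acot2, the mitochondrial counterpart of Acot1, followed the same order of groups with more spread. It had 413, 1053 and 675 with permethrin, 1479, 2253 and 2097 with clofibrate, and 144, 170 and 162 in controls. Every permethrin array exceeded every control array, and the permethrin signals differed by more among themselves than those of the other groups relative to their mean, with a coefficient of variation of 45.1% against 21.0% with clofibrate and 8.47% in controls. Acot2 rose by 2.05 ± 0.28 on the log2 scale with permethrin (limma adjusted p = 0.00394) and by 3.57 ± 0.28 with clofibrate (limma adjusted p = 3.93e-05).

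A second probe set for Acot2 was dim. It read 13.3, 30.2 and 23.8 with permethrin, 233.6, 148 and 73.0 with clofibrate, and 14.0, 17.3 and 15.4 in controls. It passed the filter through 3 clofibrate arrays, 2 permethrin arrays and 1 control array. No count of called genes rests on it, but the tally of recomputed values at the end includes it. Its log2 change with permethrin was 0.39 ± 0.37 (limma adjusted p = 0.701), so the rise of Acot2 with permethrin was read by 1 of its 2 probe sets. A further probe set is assigned to Acot1 and Acot2 together. It had 2121, 1618 and 1784 with permethrin, 4400, 5500 and 5390 with clofibrate, and 127, 249 and 263 in controls, a log2 change of 3.15 ± 0.23 and 4.62 ± 0.23 (limma adjusted p = 5.92e-05 and 1.32e-06). Acot1 to Acot6 are related in sequence, and how far a probe set of 1 of them also reads another was not tested.

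Acot3, a peroxisomal thioesterase for long-chain acyl-CoA, was also higher under both diets. Its signals were 809, 952 and 1315 with permethrin, 1491, 1657 and 1182 with clofibrate, and 187, 420 and 350.5 in controls. Both treated groups lay above all controls, but the highest permethrin array exceeded the lowest clofibrate array. The log2 change was 1.72 ± 0.27 with permethrin (limma adjusted p = 0.00977) and 2.23 ± 0.27 with clofibrate (limma adjusted p = 0.000765). The name of its probe set ends in s_at, the maker's mark for probes that can read several transcripts. The permethrin call was lost without an intensity trend in the variance model (adjusted p = 0.0668).

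Acot4, which splits succinyl-CoA and dicarboxylic acyl-CoA in peroxisomes, was called with clofibrate. It had 242, 170 and 228 with permethrin, 377, 501 and 496 with clofibrate, and 71.2, 98.7 and 147 in controls. All 3 groups were apart, though permethrin replicate 2 and control replicate 3 lay close. Acot4 rose by 2.13 ± 0.24 on the log2 scale with clofibrate (limma adjusted p = 0.000457). With permethrin the log2 change was 1.04 ± 0.24 (limma adjusted p = 0.0599). Its second probe set, at 85.6, 77.9 and 124 with permethrin, 151, 219.6 and 157 with clofibrate, and 50.9, 39.1 and 31.4 in controls, gave 1.17 ± 0.23 and 2.03 ± 0.23, both past the threshold (limma adjusted p = 0.0270 and 0.000457). With the first probe set the permethrin difference also passed without control replicate 3 (1.30, adjusted p = 0.0243), and on all arrays when they were scaled to the added transcripts (1.19, adjusted p = 0.0454) or weighted (1.07, adjusted p = 0.0411).

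**Figure D2:**
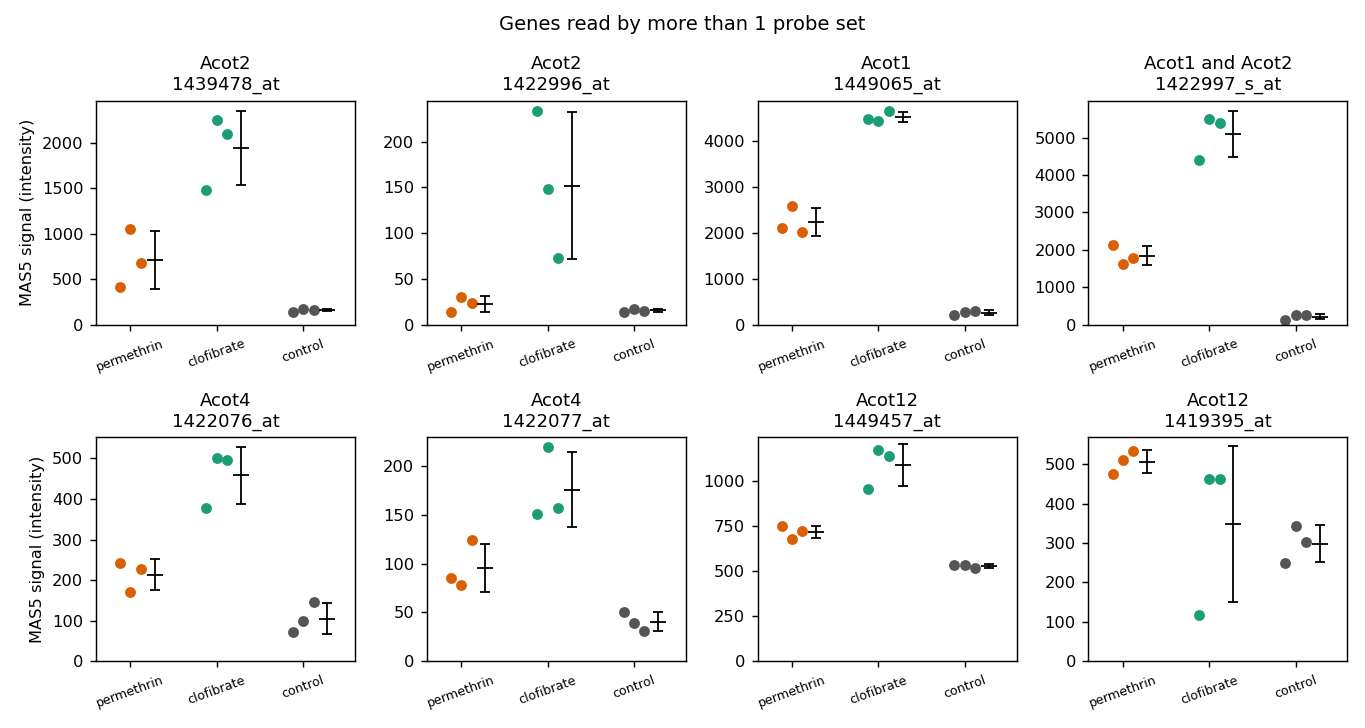
MAS5 signal (intensity, linear axis from 0, scale differs by panel) of probe sets for Acot2, Acot1, Acot4 and Acot12, 3 points per group with mean ± SD (n = 3). Both Acot4 panels show the same order of groups, the second Acot2 panel has permethrin points that overlap the controls, and the second Acot12 panel has 1 clofibrate point at 118.

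Acot1 to Acot4 are part of a run of 6 thioesterase genes on chromosome 12, in the order Acot2, Acot1, Acot4, Acot3, Acot5 and Acot6 in GRCm38.p6. The last 2 were measured as well. Acot5, a peroxisomal enzyme for medium-chain acyl-CoA, was below the filter on every array, with at most 3.60 with permethrin, 9.86 with clofibrate and 2.00 in controls. Acot6, a peroxisomal enzyme for branched acyl-CoA, read 65.7 to 91.0 with permethrin, 59.3 to 127 with clofibrate and 41.2 to 59.6 in controls. Its log2 change was 0.65 ± 0.26 with permethrin and 0.65 ± 0.26 with clofibrate (limma adjusted p = 0.299 and 0.199). Among the 8 nearest protein-coding genes, 4 on each side, 4 were bright enough to test, Numb, Riox1, Dnal1 and Mideas. Of these, 0 passed the limma threshold under either diet and 0 had an unadjusted p under 0.05, with log2 changes between -0.28 for Mideas and 0.21 for Riox1 with permethrin, and between -0.19 for Mideas and 0.44 for Riox1 with clofibrate. These neighbours were taken by position alone.

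**Figure D3:**
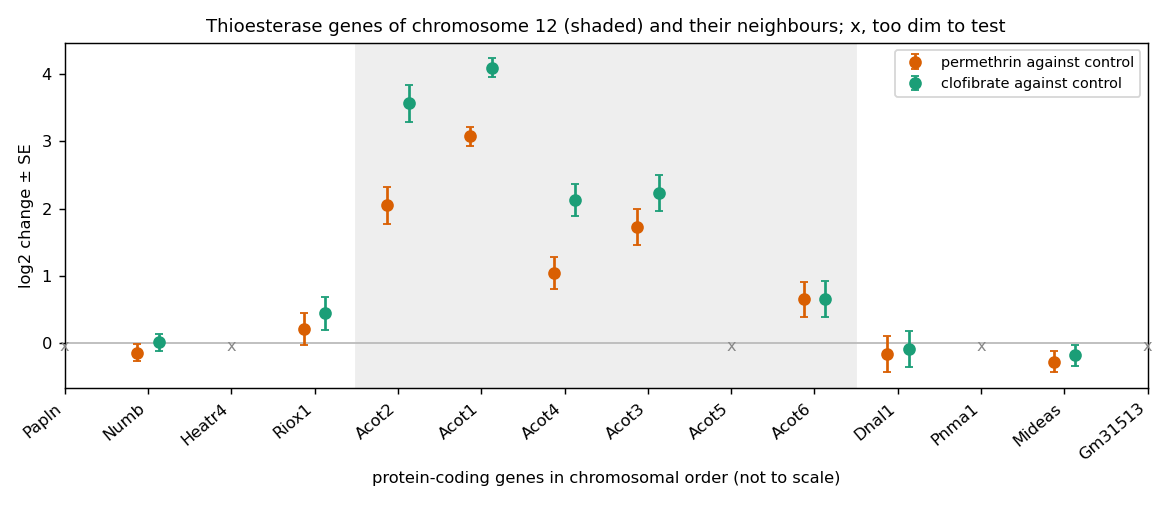
Log2 change ± SE against control for 14 protein-coding genes in chromosomal order (spacing not to scale), with the 6 thioesterase genes shaded and genes too dim to test marked x. Acot2, Acot1, Acot4 and Acot3 lie between 1.04 and 4.10, and the tested genes outside the shading between -0.28 and 0.44.

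The 250 bases before a listed start of the 4 genes in the run that were called are given below from RefSeq, build GRCm38.p6, plus strand, since they stand side by side and were higher together. They cover chr12:83987611-83987860 for Acot2, chr12:84009252-84009501 for Acot1, chr12:84038129-84038378 for Acot4 and chr12:84051894-84052143 for Acot3, for which the first of 2 listed starts is shown. The Acot4 window lies inside the annotated span of that gene, which begins further upstream, while the other windows end just before theirs. Capitals mark the motif CCAAT and the hexamer AGGTCA, each read on both strands.
Acot2: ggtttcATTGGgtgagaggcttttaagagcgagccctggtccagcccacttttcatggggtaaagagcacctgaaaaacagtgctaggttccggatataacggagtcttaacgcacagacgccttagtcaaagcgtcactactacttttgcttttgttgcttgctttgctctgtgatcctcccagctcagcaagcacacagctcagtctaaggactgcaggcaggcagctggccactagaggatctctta
Acot1: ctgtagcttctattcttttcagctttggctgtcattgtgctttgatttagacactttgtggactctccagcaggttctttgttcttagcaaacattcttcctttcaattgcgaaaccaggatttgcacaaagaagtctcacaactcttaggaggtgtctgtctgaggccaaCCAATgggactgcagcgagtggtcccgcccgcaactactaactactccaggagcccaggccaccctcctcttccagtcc
Acot4: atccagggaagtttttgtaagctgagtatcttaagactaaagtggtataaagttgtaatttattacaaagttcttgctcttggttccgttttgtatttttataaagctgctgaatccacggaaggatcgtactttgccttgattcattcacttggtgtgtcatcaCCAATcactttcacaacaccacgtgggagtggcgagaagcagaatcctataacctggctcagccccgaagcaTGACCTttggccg
Acot3: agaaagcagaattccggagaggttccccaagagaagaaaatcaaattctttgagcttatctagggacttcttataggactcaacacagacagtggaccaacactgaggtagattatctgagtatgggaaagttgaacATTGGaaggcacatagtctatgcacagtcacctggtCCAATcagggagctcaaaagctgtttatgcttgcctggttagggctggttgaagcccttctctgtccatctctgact

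The hexamer AGGTCA is the element from which binding sites of PPAR alpha and other nuclear receptors are built, as a direct repeat with 1 base between. Of the 9 thioesterase genes, 8 had a promoter sequence, with 9 starts in all. That repeat was in 0 of these 9 windows, as was a looser form with any base at the fourth position of each hexamer, both strands read. Among all 32851 windows of 250 bases, 0.0335% held the repeat and 0.338% the looser form. The hexamer was in 2 of the 9, once each for Acot4 and Acot12, where 14% of all windows hold it. The Acot4 hexamer, on the opposite strand, ends 8 bases before the start, and the Acot12 hexamer, also on the opposite strand, ends 105 bases before it. CCAAT, which was looked for after the sequences had been read, was in 7 of the 9 windows, of 6 of the 8 genes, where 33.8% of all windows hold it. In Acot1, Acot4 and Acot3 it began 79, 85 and 77 bases before the start, on the same strand as the gene. On the same strand it also began 63 bases before the start in Acot9, which was not called, and 155, 115 and 61 bases before it in Acot8. Acot2 held it only on the opposite strand, 244 bases before the start. The windows of the 2 Acot3 starts overlap almost wholly.

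Acot8, a peroxisomal thioesterase of broad range that also acts on bile acid intermediates, is the hotdog-fold member with the largest rise. Its signals were 481, 381 and 385 with permethrin, 762, 778 and 789 with clofibrate, and 244, 262 and 318 in controls. The 3 groups were fully apart, and the clofibrate arrays had a coefficient of variation of 1.72%. Acot8 rose by 1.50 ± 0.13 on the log2 scale with clofibrate (limma adjusted p = 0.000131). With permethrin the log2 change was 0.59 ± 0.13 (limma adjusted p = 0.0577).

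Acot12, a cytosolic enzyme that splits acetyl-CoA, had the tightest controls. It had 746, 677 and 724 with permethrin, 951, 1170 and 1138 with clofibrate, and 535, 532 and 516 in controls. The groups did not overlap. Acot12 rose by 1.03 ± 0.11 on the log2 scale with clofibrate (limma adjusted p = 0.000330). With permethrin the log2 change was 0.44 ± 0.11 (limma adjusted p = 0.0807), which passed without clofibrate replicate 1 (adjusted p = 0.0468).

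A second probe set for Acot12 gave another order. It read 475, 512 and 532 with permethrin, 118, 462 and 463 with clofibrate, and 249, 343 and 303 in controls. Here permethrin lay above clofibrate, and clofibrate replicate 1 fell below every control. The log2 change was 0.77 ± 0.41 with permethrin and -0.01 ± 0.41 with clofibrate (limma adjusted p = 0.447 and 0.994). Without clofibrate replicate 1, an alternative chosen after seeing the data, it was 0.77 and 0.64, both past the threshold (limma adjusted p = 0.0183 and 0.0361). One more probe set for the gene was below the filter on all 9 arrays.

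Acot7, a cytosolic thioesterase known for its high level in brain, had 195, 279.6 and 225 with permethrin, 332, 387 and 333 with clofibrate, and 223, 182 and 260.2 in controls. Permethrin and control arrays overlapped, and all clofibrate arrays lay above both. The log2 change was 0.66 ± 0.17 with clofibrate (limma adjusted p = 0.0436) and 0.07 ± 0.17 with permethrin (limma adjusted p = 0.901). The clofibrate call was lost without control replicate 1 or 2, permethrin replicate 3 or any 1 clofibrate array, with adjusted p between 0.0600 and 0.153, and its log2 change then ran from 0.53 to 0.70. In those fits 3.45% to 6.64% of all tested genes were called with clofibrate, against 7.03% on all arrays.

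Acot9 and Acot13, a mitochondrial thioesterase and one found mainly with mitochondria, did not pass in any comparison. Acot9 had 50.5, 64.8 and 56.4 with permethrin, 42.6, 62.8 and 60.4 with clofibrate, and 44.7, 48.6 and 47.3 in controls. Its permethrin arrays lay just above its controls, with a log2 change of 0.27 and a 95% interval of -0.14 to 0.67, and with clofibrate it was 0.21 (-0.20 to 0.61). A probe set shared with Acot10, a close relative, read 45.0 to 63.7 with permethrin, 58.0 to 65.5 with clofibrate and 36.7 to 61.4 in controls. Acot13 had 804, 948 and 886 with permethrin, 824, 1076 and 573 with clofibrate, and 915, 863 and 689 in controls. All 3 groups overlapped, and the log2 change was 0.10 (-0.33 to 0.54) with permethrin and -0.03 (-0.47 to 0.40) with clofibrate. On arrays scaled to the added transcripts the clofibrate value of Acot13 was 0.30, so it has no settled sign.

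Set directly against each other at the same dietary dose and time, permethrin gave lower signals than clofibrate for several thioesterase genes. Of the 9 genes 4 were called lower with permethrin, Acot1, Acot2, Acot8 and Acot12, where 0.265% of all tested genes were called lower, and 0 were called higher, where 0.473% of all tested genes were. The log2 difference of permethrin to clofibrate was -1.02 ± 0.14 for Acot1 (limma adjusted p = 0.00869), -1.52 ± 0.28 for Acot2 (0.0354), -0.90 ± 0.13 for Acot8 (0.0145) and -0.59 ± 0.11 for Acot12 (0.0376). In signal, Acot1 averaged 2236 ± 307 with permethrin and 4517 ± 114 with clofibrate, and Acot8 averaged 416 ± 56.4 and 776 ± 13.4 in the same order (SD, n = 3). In 6 of the 9 genes no permethrin array reached a clofibrate array, where this is so for 9.02% of all tested genes. The other two of these 6 were Acot4, at -1.09 ± 0.24 (limma adjusted p = 0.0754), and Acot7, at -0.59 ± 0.17 (limma adjusted p = 0.169). Acot3 had a log2 difference of -0.51 with a 95% interval of -1.11 to 0.09, so a difference as large as that of Acot1 is within its interval.

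**Figure D4:**
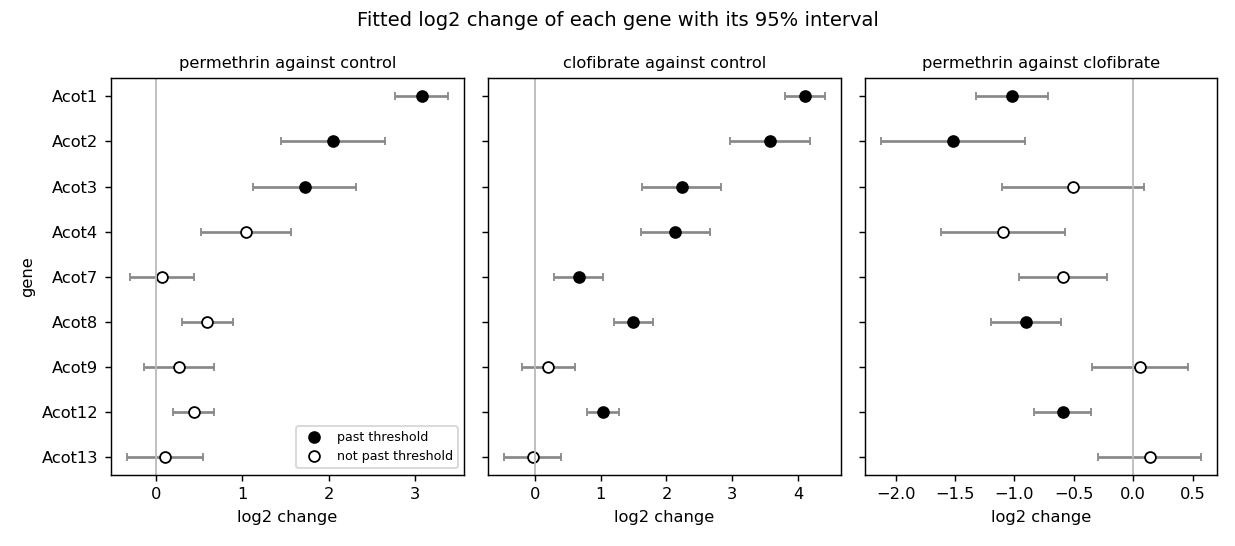
Log2 change of each gene in the 3 comparisons with its 95% interval (n = 3 arrays per group, axis differs by panel). Filled points passed an adjusted p of 0.05, which 3, 7 and 4 genes did from left to right.

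The calls between the diets often changed when 1 array was left out, and so did those of all tested genes. The share of all tested genes called was 0.738% on all arrays. It was 0.136% without clofibrate replicate 3 and 0.955% without clofibrate replicate 1. Without any 1 other array it was 0.377% to 0.586%. Whether the thioesterase genes lost calls beyond this was not tested. The direction of the 4 representing probe sets stayed negative whichever array was left out. This was fixed in advance, since in these probe sets no permethrin array reached a clofibrate array. Acot1 lost its call without clofibrate replicate 3 (adjusted p = 0.0629). Acot2 lost it without any 1 control, permethrin replicate 1 or 3, or clofibrate replicate 2 or 3, with adjusted p between 0.0587 and 0.159. Acot8 lost it without permethrin replicate 2 or 3 or clofibrate replicate 2 or 3 (0.0509 to 0.0897), and Acot12 without any 1 array except clofibrate replicate 1 (0.0623 to 0.177). Acot4 gained one without control replicate 3 (0.0424). The second Acot12 probe set had the opposite sign, 0.77 ± 0.41 (limma adjusted p = 0.490).

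Other enzymes that act on acyl-CoA thioesters or related bonds did not pass the threshold. Of 14 listed relatives, among them Acot5, Acot6 and Acot11 of the same family, 12 were measured and 8 tested. In the 3 comparisons 0 passed limma, where 2.13% of all tested genes were called with permethrin, 7.03% with clofibrate and 0.738% between the diets. An unadjusted p under 0.05 was found for 2 with permethrin and 4 with clofibrate. The share of all tested genes at that unadjusted level is not given here. With arrays scaled to the added transcripts, 2 of the relatives passed with clofibrate, where 9% of all tested genes were called. The median log2 change of the tested relatives was 0.03 with permethrin and 0.01 with clofibrate. Hibch, which frees 3-hydroxyisobutyrate in valine breakdown, had 0.38 with permethrin and 0.35 with clofibrate. Baat, which joins bile acids to glycine or taurine and is a relative of Acot1, had -0.15 and -0.28 in the same order. Acnat2, a peroxisomal acyltransferase, had 0.06 and -0.02, and Them4, a mitochondrial hotdog thioesterase, 0.14 and 0.22. Ppt1 and Ppt2, lysosomal thioesterases, had -0.30 and 0.00 with permethrin, and -0.37 and -0.43 with clofibrate. Acot11, known from brown fat, had -0.23 and 0.05. Them5, Them6 and Olah were too dim to test.

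Of the steps that make, move and use acyl-CoA, the transfer of acyl groups to carnitine showed the highest share of called genes. With permethrin 4 of 6 tested carnitine genes rose and with clofibrate 6 of 6, where 1.28% and 3.22% of all tested genes were called higher. Their medians were 0.89 and 1.06 on the log2 scale. Crat, carnitine acetyltransferase, changed by 1.69 ± 0.14 and 2.67 ± 0.14, and Slc22a5, the carnitine importer, by 1.64 ± 0.15 and 2.27 ± 0.15, in the same order. Slc25a20, which carries acylcarnitine into mitochondria, changed by 0.99 ± 0.12 and 0.96 ± 0.12, and Cpt2, which turns acylcarnitine back into acyl-CoA, by 0.80 ± 0.14 and 1.16 ± 0.14, all 4 past the threshold.

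In peroxisomal beta-oxidation 7 of 16 tested genes rose with permethrin and 9 with clofibrate, and 1, Pecr, was called lower under each diet. Of all tested genes 1.28% and 3.22% were called higher and 0.85% and 3.8% lower, in the same order. Pecr, a reductase of fatty acid chain elongation, was at -0.52 with permethrin and -0.48 with clofibrate, and at -0.37 and -0.15 with arrays scaled to the added transcripts, where neither passed (limma adjusted p = 0.384 and 0.572). Pex11a, which divides peroxisomes, changed by 2.07 ± 0.23 and 2.48 ± 0.23, the bifunctional enzyme Ehhadh by 1.52 ± 0.10 and 1.72 ± 0.10, and the isomerase Eci2 by 0.87 ± 0.11 and 1.38 ± 0.11, in the same order. In mitochondrial beta-oxidation 4 of 17 rose with permethrin and 10 with clofibrate, and 0 fell. The isomerase Eci1 changed by 0.98 ± 0.13 and 1.78 ± 0.13, and the dehydrogenase Acadl by 0.59 ± 0.09 and 1.07 ± 0.09. Decr1, a reductase for unsaturated acyl-CoA, rose by 0.63 ± 0.11 with permethrin and by 0.92 ± 0.11 with clofibrate. Acad10, an acyl-CoA dehydrogenase relative, was at 0.41 ± 0.25 with permethrin (limma adjusted p = 0.508) and rose by 1.14 ± 0.25 with clofibrate. Over 21 alternatives the number called with permethrin ran from 3 to 9 for the peroxisomal list and from 1 to 6 for the mitochondrial list. The share of all tested genes called with permethrin, in either direction, ran from 0.642% to 2.55% over them.

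Of 15 tested genes that form acyl-CoA, the substrate of the thioesterases, 1 rose with permethrin, where 1.28% of all tested genes did so. It was Acsm5, at 0.59 ± 0.12. With clofibrate 7 of 15 rose, where 3.22% of all tested genes did so. In the same comparison 1, Slc27a5, was called lower, at -0.48 ± 0.11, where 3.8% of all tested genes were. The fatty acid transporters Slc27a1 and Slc27a4 rose by 2.47 ± 0.30 and 1.21 ± 0.17 and the synthetase Acsl3 by 1.16 ± 0.23. Of 15 genes of CoA synthesis and breakdown, 1 rose with permethrin and 6 with clofibrate. The pantetheinase Vnn1, which recovers a building block of CoA, changed by 3.50 ± 0.20 and 4.54 ± 0.20, while Ppcs, an enzyme of CoA synthesis, and Vnn3 rose with clofibrate by 0.98 ± 0.18 and 0.92 ± 0.18. Among 7 tested acyl-CoA binding proteins none passed with permethrin, where 2.13% of all tested genes were called, and 1 had an unadjusted p under 0.05. With clofibrate 1 was called lower, Fabp1, at -0.35 ± 0.09 (limma adjusted p = 0.0473). Fabp1 read near the top of the signal range. On permethrin replicates 2 and 3 it was the highest signal of the array, at 13408.5 and 12976. Whether the arrays can show a rise at that level was not tested. With arrays scaled to the added transcripts Fabp1 was at -0.02 (limma adjusted p = 0.946) and Slc27a5 at -0.15 (limma adjusted p = 0.516), so neither call held. Over 21 alternatives the number called ran from 0 to 1 for acyl-CoA formation with permethrin and from 3 to 9 with clofibrate, and from 0 to 3 for acyl-CoA binding with clofibrate. Over them the share of all tested genes called, in either direction, ran from 0.642% to 2.55% with permethrin and from 3.18% to 12% with clofibrate.

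**Figure D5:**
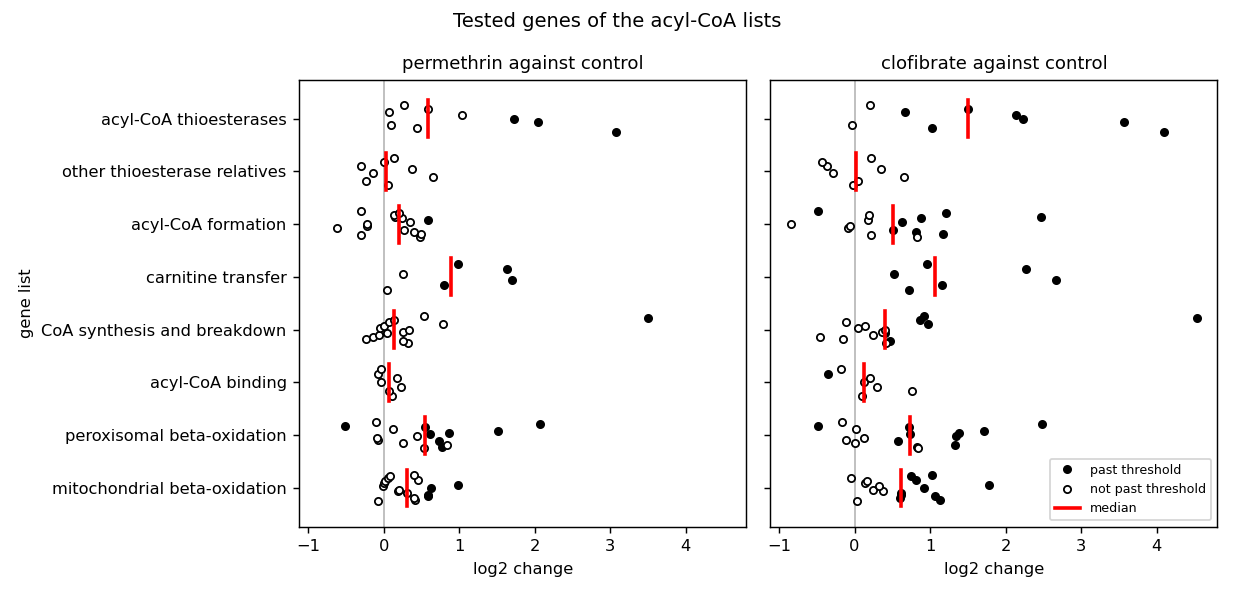
Log2 change of the 9 thioesterase genes and of each tested gene in 7 related lists, with permethrin (left) and clofibrate (right) against control, filled where past the threshold, red line at the list's median. The medians of the 9 genes are 0.59 and 1.50, and those of the other thioesterase relatives, which include Acot6 and Acot11, 0.03 and 0.01.

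Of all other tested genes, Vnn1 and Cd36, a fatty acid uptake protein, had the profile most like that of Acot1. Likeness was the root mean square distance between log2 signals over the 9 arrays, each less the gene's control mean, and was 0.41 for Vnn1 and 0.44 for Cd36. The zinc transporter Slc39a5 (0.64) and the phospholipid transfer proteins Pctp (0.65) and Pltp (0.65) came next. Slc39a5 averaged 11.1 in controls, below the filter signal of 15.6, so its distance rests on a dim baseline. Nearest to Acot12 were Grpel2, a mitochondrial co-chaperone, at 0.12, Usp20, a deubiquitinase, at 0.13, Acadl at 0.13, Tpm1, tropomyosin, at 0.14 and Usp38, a deubiquitinase, at 0.14. Small changes such as that of Acot12 leave many genes close by.

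The livers carried their defining transcripts, with Alb, the albumin gene, at a mean signal of 8509 with permethrin, 7033 with clofibrate and 9351 in controls. The summed signal of 7 hepatocyte markers was 45294 to 49831 with permethrin, 35534 to 42874 with clofibrate and 50521 to 54728 in controls. With clofibrate 3 of the 7 were called lower, where 3.8% of all tested genes were. These 3 were Alb at -0.42, Apoa1 at -0.40 and Cps1 at -0.68 on the log2 scale. With arrays scaled to the added transcripts these were -0.08, -0.06 and -0.34, and none of the 3 passed (limma adjusted p = 0.715, 0.765 and 0.0950). The sum of 6 endothelial markers was 1782 to 1983 with permethrin, 1582 to 1622 with clofibrate and 2048 to 2209 in controls. Of the 6, 0 passed limma under either diet, where 2.13% of all tested genes were called with permethrin and 7.03% with clofibrate. With clofibrate 4 of the 6 had an unadjusted p under 0.05. The adipocyte markers Adipoq and Lep were too dim to test in all groups, with sums of 2.59 to 9.56, 7.97 to 12.4 and 7.68 to 10.1. Of 6 Kupffer cell, 6 stellate cell, 3 bile duct, 1 lymphocyte, 2 red blood cell and 1 pancreas marker that could be tested, 0 passed limma in any comparison, and at an unadjusted p under 0.05 the counts with permethrin were 0, 2, 0, 0, 0 and 1, and with clofibrate 0, 2, 0, 0, 0 and 0. The share of all tested genes at that unadjusted level is not given here. Neither these counts nor the endothelial count can be set against it. In bulk liver, fewer cells of a type and less RNA per cell cannot be told apart, and the part of these shifts in the thioesterase results was not tested.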

How the data were processed

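The authors deposited 1 MAS5 signal per probe set and array, a linear intensity, per the submitters' processing notes. Its version is not stated there. Per the labels' protocols, total RNA was turned into biotin-labelled cRNA. Some descriptions of treated samples name rats, while organism, source and strain give mouse. The table has 45101 rows, 64 of them control probe sets, and 0 columns of other samples. Of the others 34945 were assigned to 1 gene, 932 to several and 9160 to none. Signals were raised by 3.35 (their 20th percentile) and taken to log2. The 24546 probe sets that passed the filter entered limma 3.58.1 (R 4.3.3) with a mean per group over 9 arrays, moderated with an intensity trend, and p-values were adjusted over all of them, two-sided.

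The members and gene lists were chosen with earlier results of these data known. The rule for names took the 9 members, the measured relatives, up to 3 called genes per related list and diet, and the 5 genes nearest to Acot1 and to Acot12. Promoters come from RefSeq, GRCm38.p6. Protein sequences were not used here. The fit was tested on simulated data. The number of arrays limits the precision. No label names a batch. Alternatives covered the offset, normalization, filter, variance model, array weights, arrays in the model, probe set, replicate block and each array left out.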

Additional observations from a re-analysis of the deposited data

How the results depend on the processing

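Across the tested alternatives, the count of called thioesterase genes was 2 to 5 with permethrin, where it is 3, and 6 or 7 with clofibrate, where it is 7. Shares of all tested genes called, in either direction, moved as well. They ran from 0.642% to 2.55% with permethrin, where the share is 2.13%. With clofibrate they ran from 3.18% to 12%, where it is 7.03%. With array weights 5 genes passed with permethrin, where 2.51% of all tested genes were called. Between the diets, 4 genes were called, against 1 after median centring of arrays, 0 without an intensity trend and 5 with array weights, which added Acot4. Of all tested genes 0.738%, 0.265%, 0.0802% and 1.81% were called, in the same order. When 1 array was left out, 0 to 4 of the thioesterase genes and 0.136% to 0.955% of all tested genes were called. The cause of these losses was not tested. Leaving out 1 array gave 3 or 4 with permethrin against control and 6 or 7 with clofibrate against control. The shares of all tested genes called were then 0.866% to 2.55% and 3.45% to 7.13%. Of 302 recomputed values for the 14 called gene results, 255 kept direction and call, 44 kept direction but lost the call, and 3 turned. All 3 came from the second Acot12 probe set. It was at -0.0082 for clofibrate against control, and at 0.77, or 0.13 without clofibrate replicate 1, for permethrin against clofibrate. The 302 values include the dim second Acot2 probe set. Choosing probe sets by mean log2 signal picked the same ones, so those values could not differ. Leaving out a control array cannot move a log2 difference between the diets, only its adjusted p.

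No label ties a replicate number to a shared litter or day. Deviations of the 9 same-numbered pairs of arrays correlated between -0.11 and 0.11, 1 of them over 0.1, and 5 of 9 arrays correlated best with an array of their own number. Some such matches come without any pairing, since the other groups each hold an array of that number. The count alone therefore shows no pairing. With the replicate block, 3 genes were called with permethrin, 6 with clofibrate and 3 between the diets. Of all tested genes 1.64%, 5.82% and 0.505% were called under the block, in the same order. The call of Acot7 with clofibrate was lost in 11 of 21 alternatives, among them quantile normalization (limma adjusted p = 0.0561) and the replicate block (0.0743). Under the block Acot12 also lost its call between the diets (0.0923).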
